A study of Rattus norvegicus with 10 samples.

Results

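Glycolysis and the response to low oxygen were followed in rat mammary tumors through 35 genes, of which 22 take glucose to lactate and 13 sense oxygen, encode hypoxia-inducible factors or are induced when oxygen is short. A gene was taken from probe sets that the platform annotation gives to its symbol alone, and its brightest probe set over all 10 arrays supplied 1 value per array. All 35 were measured and tested, among 12255 genes with a tested probe set of their own. All tumors grew in female Sprague-Dawley rats given 1 oral dose of the carcinogen 7,12-dimethylbenz(alpha)anthracene (DMBA) at 100 mg/kg. The 5 tumors carry the codes 09I1, 11D2, 12I1, 29I1 and 43D1. A basal biopsy was taken from each when the rats were 12 weeks old and untreated, and a final sample when they were 19 weeks old and had received weekly adriamycin (doxorubicin) at 1 mg/kg over 6 weeks. The study compared final with basal samples of the same tumor (n = 5 in each group), and its tumors had been picked for 1 histological grade.

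Glycolysis splits glucose into pyruvate in the cytosol, and lactate dehydrogenase and lactate transporters carry the product away when it is not passed to mitochondria. When oxygen is short, prolyl hydroxylases (the Egln genes) no longer mark the alpha subunits of hypoxia-inducible factors (HIF) for destruction, and the stabilised factors switch on glucose transporters, most glycolytic enzymes and genes for acid balance, vessel growth and collagen folding. Poorly perfused regions of solid tumors are a classic place for this response.

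Untreated tumors of the later age are not among the samples, so treatment, age and time cannot be told apart. The titles of basal and final samples carry separate runs of codes, whose meaning the labels do not give. Any batch that follows these codes cannot be told apart from group either. Final samples are whole tumors by the labels and needle samples by the design text. The labels do not say whether the 5 tumors grew in separate rats, so p-values measure the spread between these tumors. In bulk tissue, fewer cells of a type and less RNA per cell cannot be told apart. The final array of 09I1 stood apart: its median correlation with the other arrays was 0.938, against 0.975 to 0.984 for the others, and its beta-actin control read 2.61 log2 units higher at the 3' than at the 5' end, against 0.72 to 0.96. Leaving out 09I1 moved the mean change of 20 of the 35 members by over 1.5 times (15 to 25 for each other tumor), and its values are given for those described array by array. The 14 luminal epithelial markers averaged 9.47 to 10.41 log2 units across the 10 arrays.

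Glycolytic and hypoxia genes showed no shared change between basal and final samples that passed the test. They stood out in 1 array instead: 28 of the 35 had their highest level of all 10 arrays in the basal biopsy of tumor 12I1, where the lactate exporter Slc16a3, the carbonic anhydrase Car9, the hydroxylase Egln3 and the oxidase Ero1a were all at their highest. The lowest values fell mostly in the final array of 09I1, where 15 members were at their lowest and which stood apart for all genes, and in the basal biopsy of 43D1, with 13. Between basal and final samples, members were mostly lower in 12I1 and mostly higher in 43D1, which follows in part from those basal extremes. The average over tumors was small.

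Across the 5 tumors, final minus basal was tested with limma, with the tumor as a block, over 23281 probe sets. At an adjusted p under 0.05 no probe set was called (0%), the smallest adjusted p being 0.233, and 935 probe sets lay under 0.05 before adjustment (1081 in the methods' paired test, with 0 after adjustment). Adjusted p-values of the 35 members ran from 0.977 to 1.00. Before adjustment 1 member, Aldoc, lay under 0.05, against 2.88% of all genes. A negative mean change was seen in 25 of the 35, against 47.3% of genes. The median change was -0.18 log2 units over the 35 members, -0.14 over the 22 glycolysis members and -0.21 over the 13 others, against 0.01 over all genes. Without tumor 12I1 the medians were -0.04, -0.01 and -0.05, and 21 members were negative. The number of members with the same sign in all 5 tumors was 0, where 2.51% of genes were lower and 3.33% higher in all 5. The ranges of the basal and the final arrays overlapped for every one of the 35. That share was not counted over all genes, so the overlap is not a result about the members. Standard errors of the members' mean changes ran from 0.11 to 0.62 log2 units. These are not detection limits, as Aldoc, at 0.53 ± 0.19, was not called. Changes well above a standard error could thus be missed with 5 pairs.

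Leaving out 1 tumor moved the mean change of 15 (without 29I1) to 25 (without 12I1) of the 35 members by over 1.5 times but called none. Without 12I1 the mean change of 20 of the 35 was reversed or more than 1.5 times smaller, and without 09I1 that of 10. Without 09I1, 29 members had a negative mean change and 4 lay under an unadjusted p of 0.05, against 6.85% of genes in that fit. These were Pfkl at -0.36, Pgk1 at -0.24, Egln1 at -0.39 and Aldoc at 0.58 log2 units, with adjusted p from 0.557 to 0.616 in limma. Without 12I1 the only member under that limit was Egln3, at 1.10 ± 0.34 log2 units (SE, n = 4 tumors) with a limma adjusted p of 0.898, and its mean was 0.30 without 11D2 and 0.26 without 43D1.

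**Figure D1:**
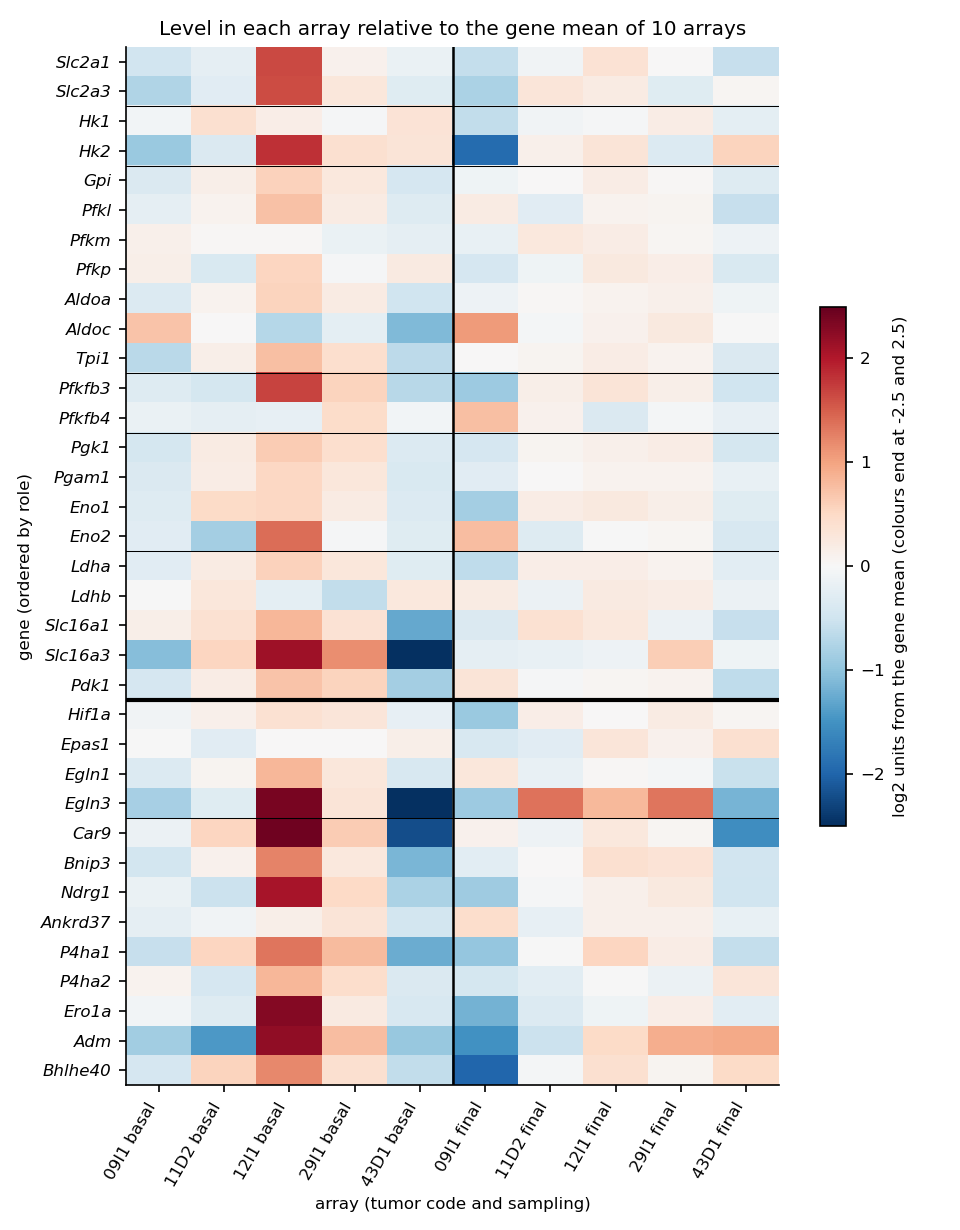
Level of each of the 35 genes (rows, by role, glycolysis above the thick line) in each of the 10 arrays (columns, basal left and final right), in log2 units from the gene's mean over the 10 arrays. The 12I1 basal column is the reddest, with 28 genes at their highest. The 09I1 final and 43D1 basal columns hold the lowest value of 15 and 13 genes.

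The array pattern was read gene by gene. A gene had its highest level in 12I1 basal in 7.00% of all 12255 genes, against the 28 of 35 members. The lowest level fell in 43D1 basal for 13 members and in 13.2% of genes. The final array of 09I1, which stood apart for all genes, held the lowest level of 15 members and of 23.8% of genes. Relative to their own means over 10 arrays, glycolysis members lay at a median of 0.61 log2 units in 12I1 basal, and the HIF and hypoxia-induced members at 1.24. In 09I1 final the same medians were -0.25 and -0.89 and in 43D1 basal -0.33 and -0.62, while the median over all genes was -0.03 in 12I1 basal, 0.11 in 09I1 final and -0.00 in 43D1 basal. Both tumors were low at the other sampling too, with -0.32 and -0.23 in 09I1 basal and -0.29 and -0.27 in 43D1 final. Members not at their highest in 12I1 basal were Hk1, Pfkm, Aldoc, Pfkfb4, Ldhb, Epas1 and Ankrd37. Counts of 28 were also found after cyclic loess and after centring each array on its median.

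Set side by side, the basal arrays of 12I1 and 43D1 differed in 1 direction for most members. These tumors were picked after their values were seen, with 1 array each, so the differences are a description with no test. In the basal arrays 31 of 35 members were higher in 12I1 (5686 of 12255 genes were), 22 of them at least 2-fold (6.66% of genes). The median difference was 1.23 log2 units, against -0.04 over all genes. Egln3 differed by 5.33, Slc16a3 by 4.82, Car9 by 4.64 and Adm by 3.18 log2 units. In the final arrays 27 members were still higher in 12I1 (6744 of 12255 genes were). Only 3 (Egln3, Car9 and P4ha1) were at least 2-fold higher, against 3.05% of genes, and the median difference was 0.40. Slc16a3 differed by -0.02 there and Adm by -0.47. As the tumors were picked on their basal values, a smaller difference in the final arrays can come from that choice alone.

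**Figure D2:**
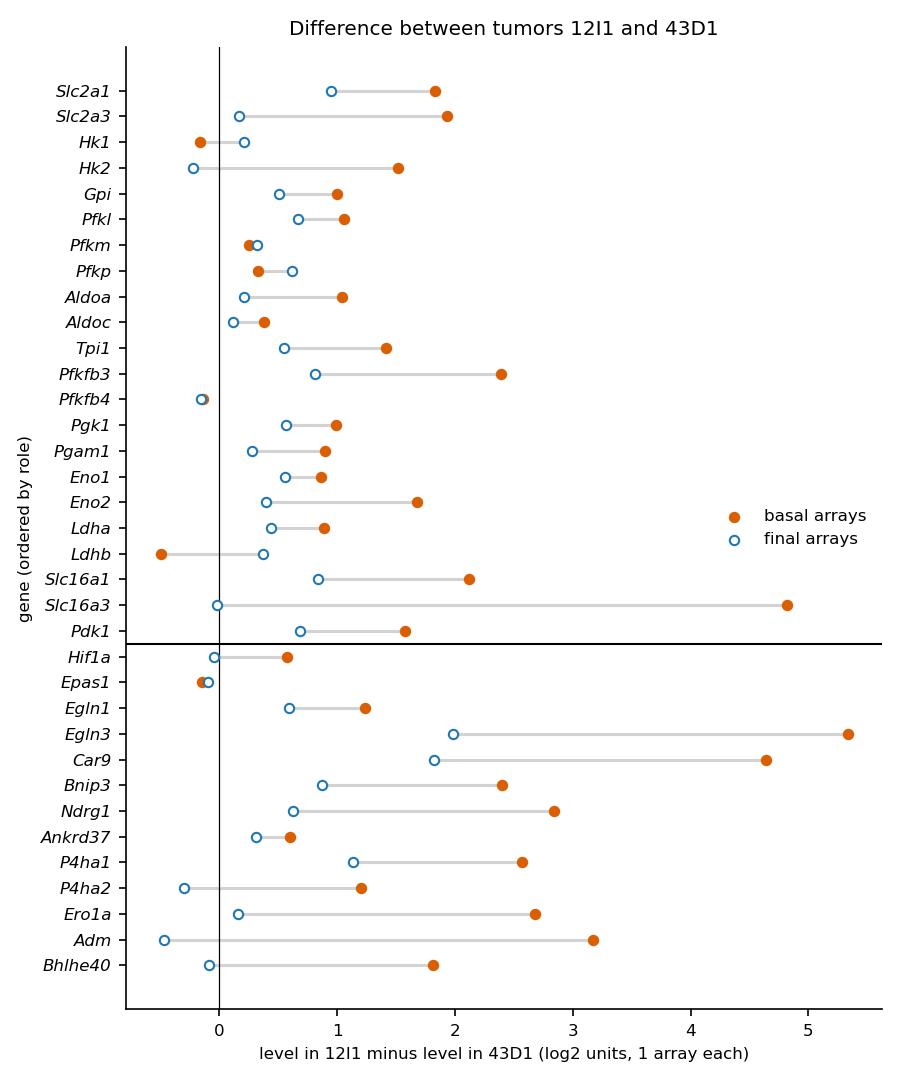
Level in tumor 12I1 minus level in tumor 43D1 for each gene, in log2 units, with 1 array per tumor and sampling; filled points are the basal arrays and open points the final arrays, joined by a line. Most filled points lie right of 0 (31 of 35), out to 5.33 for Egln3, and most open points lie closer to 0 (median 0.40 against 1.23).

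Promoters of some members are shown beside the values. HIF binds the letters ACGTG or GCGTG in hypoxia response elements. RefSeq promoter windows of the GRCr8 assembly, from 250 bases before to 50 after a gene's start, were held for 31 of the 35 members and searched on both strands. A match is a description and not a binding site, and the palindrome CACGTG, the E-box that other factors bind, contains ACGTG on both strands. Examples follow, 5' to 3' on the gene's strand, chosen among members that were highest in 12I1 basal, the last 3 of them hypoxia-induced genes and the others from 4 glycolytic roles, with the core in capitals (written CACGT where it lies on the opposite strand).
Slc2a1 (chr5:138002451-138002495, + strand): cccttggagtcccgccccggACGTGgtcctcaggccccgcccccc
Pfkfb3 (chr17:71944872-71944916, + strand): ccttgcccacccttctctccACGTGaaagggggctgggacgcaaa
Eno2 (chr4:159267335-159267379, - strand): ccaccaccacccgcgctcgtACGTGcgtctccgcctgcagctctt
Ldha (chr1:106507986-106508030, + strand): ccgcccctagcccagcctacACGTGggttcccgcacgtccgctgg
Car9 (chr5:62559005-62559049, + strand): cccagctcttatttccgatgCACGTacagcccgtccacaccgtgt
Bnip3 (chr1:203155036-203155080, - strand): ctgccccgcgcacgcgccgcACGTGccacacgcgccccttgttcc
P4ha1 (chr20:27845037-27845081, + strand): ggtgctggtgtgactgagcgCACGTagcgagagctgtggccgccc

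Core letters lay close to the start in several of these: at -51 in Slc2a1, -41 in Pfkfb3, -86 in Ldha and -98 in Bnip3, counted from the start to the core's first base, and just past it at 1 in Car9 and 11 in P4ha1. In Pfkfb3, Ldha and Bnip3 the letters are part of a CACGTG palindrome. Either core was found in 24 of the 31 members (77.4%) and in 61.9% of the 10154 tested genes with a window. ACGTG alone was found in 21 members (67.7%) and 26.0% of genes, and CACGTG in 7 members (22.6%) and 9.75% of genes. The members were listed as glycolysis and hypoxia response genes, so a higher share can come from the list itself. It is not a result about tumor 12I1. Median GC content was 64.0% in the members and 60.7% in all. Among the members at their highest in 12I1 basal, 17 of 24 held ACGTG, and among the others 4 of 7. Neither core was in the windows of Egln3, Slc16a3 and Adm, whose changes varied most between tumors, and that says only that these letters are not within these 300 bases. A gene counted if any of its listed windows held the letters, and 3 members (Hk1, Aldoa and Eno1) and 658 of all genes had more than 1. Slc2a3, Pgk1, Ndrg1 and Ero1a had no entry.

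Glucose enters through the transporters Slc2a1 (GLUT1) and Slc2a3 (GLUT3). Slc2a1 measured 9.70, 9.96, 11.84, 10.29 and 10.004 log2 units in the basal arrays of 09I1, 11D2, 12I1, 29I1 and 43D1 and 9.58, 10.09, 10.54, 10.19 and 9.60 in their final arrays. The 12I1 basal biopsy lay more than 1 unit above every other array, and the remaining basal and final values overlapped. Its mean change was -0.36 ± 0.21 log2 units (SE, n = 5 tumors) and -0.12 without 12I1. Slc2a3 measured 6.13, 6.60, 8.51, 7.16 and 6.58 in the basal and 6.09, 7.18, 7.09, 6.58 and 6.92 in the final arrays, in the same tumor order, which is kept below. It was again highest in 12I1 basal, and its mean change was -0.22 ± 0.30 with a positive mean of 0.07 without that tumor.

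Hexokinases trap glucose as glucose 6-phosphate. Hk2, the isoform that HIF induces, measured 5.42, 5.99, 8.18, 6.76 and 6.66 in the basal and 4.43, 6.47, 6.67, 6.01 and 6.90 in the final arrays. It was highest in 12I1 basal and lowest in 09I1 final, and its mean change was -0.50 ± 0.31, or -0.25 without 12I1. Hk1, the isoform found in most tissues, measured 9.64, 10.09, 9.87, 9.67 and 10.04 in the basal and 9.09, 9.61, 9.66, 9.89 and 9.46 in the final arrays. Hk1 was lower in the final sample of every tumor but 29I1, with a mean change of -0.32 ± 0.16. The second Hk1 probe set had a mean change of 0.21, and averaging both gave -0.05. Its mean level was 4.24, against 9.70 for the brightest and 4.11 for the dimmest probe set tested. It was too dim to weigh against the brightest.

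The upper steps turn glucose 6-phosphate into the triose phosphates. Aldoc, an aldolase best known from brain, measured 10.03, 9.32, 8.59, 9.06 and 8.21 in the basal and 10.37, 9.26, 9.41, 9.56 and 9.29 in the final arrays. Unlike most members it was low in 12I1 basal and higher in that tumor's final sample. Like them it was low in 43D1 basal, and it was higher in the final sample of 4 tumors in all. Its mean change was 0.53 ± 0.19 (SE, n = 5 tumors), with an unadjusted p of 0.0241 and an adjusted p of 0.977 in limma. Pfkp, the platelet-type subunit of phosphofructokinase, measured 10.21, 9.67, 10.60, 10.02 and 10.27 in the basal and 9.63, 9.94, 10.29, 10.22 and 9.67 in the final arrays. The ranges overlapped almost fully, with a mean change of -0.20 ± 0.18 that was -0.11 without 09I1 and -0.10 without 43D1. The other upper enzymes had mean changes of -0.08 (Gpi, glucose 6-phosphate isomerase), -0.20 and 0.08 (the phosphofructokinase subunits Pfkl and Pfkm), -0.01 (the main aldolase Aldoa) and -0.01 (the isomerase Tpi1). All but Pfkm and Aldoc of these 7 were highest in 12I1 basal.

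Pfkfb3 and Pfkfb4 make and remove fructose 2,6-bisphosphate, which activates phosphofructokinase. Pfkfb3 measured 6.76, 6.65, 8.78, 7.65 and 6.39 in the basal and 6.18, 7.25, 7.41, 7.23 and 6.60 in the final arrays, with 12I1 basal again above the rest. Its mean change was -0.32 ± 0.29, and -0.05 without 12I1. Pfkfb4 measured 5.76, 5.71, 5.72, 6.39 and 5.86 in the basal and 6.67, 6.04, 5.56, 5.87 and 5.72 in the final arrays. No excess in 12I1 was seen for Pfkfb4, whose highest array was the final one of 09I1, and its mean change was 0.09 ± 0.23, or -0.12 without 09I1.

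The lower steps from 1,3-bisphosphoglycerate to phosphoenolpyruvate yield ATP. Pgk1, phosphoglycerate kinase, measured 11.77, 12.41, 12.85, 12.63 and 11.87 in the basal and 11.80, 12.28, 12.35, 12.40 and 11.78 in the final arrays. Tumors 09I1 and 43D1 were low at both samplings, and the mean change was -0.18 ± 0.11, or -0.10 without 12I1. Eno1, the widely expressed enolase, measured 12.43, 13.23, 13.27, 12.95 and 12.40 in the basal and 11.90, 12.93, 12.99, 12.90 and 12.44 in the final arrays, a mean change of -0.23 ± 0.11, or -0.15 without 09I1. The same tumors were low here. Pgam1, the mutase between them, had a mean change of -0.10, and Eno2, the neuronal enolase, one of 0.03, with -1.39 in 12I1 and 1.06 in 09I1. All 4 genes were highest in 12I1 basal.

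Pyruvate is turned into lactate or sent to mitochondria. Ldha, the lactate dehydrogenase subunit that HIF induces, measured 12.10, 12.60, 12.97, 12.67 and 12.08 in the basal and 11.75, 12.55, 12.56, 12.48 and 12.12 in the final arrays. Its order among tumors was close to that of Pgk1, and its mean change was -0.19 ± 0.11. The lactate transporter Slc16a1 (MCT1) measured 7.43, 7.67, 8.13, 7.65 and 6.01 in the basal and 6.94, 7.67, 7.55, 7.15 and 6.72 in the final arrays, a mean change of -0.17 ± 0.23, or -0.07 without 12I1 and -0.09 without 09I1 or 29I1. It was lowest in 43D1 basal. Ldhb, the subunit of aerobic tissues, had a mean change of 0.13 and was not highest in 12I1 basal. Pdk1, which blocks pyruvate dehydrogenase, had one of -0.07.

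The lactate exporter Slc16a3 (MCT4), chosen after its values were seen, had the widest spread of changes. It measured 7.05, 8.64, 10.22, 9.26 and 5.40 in the basal and 7.88, 7.93, 7.98, 8.72 and 7.998 in the final arrays. Basal tumors thus spanned 4.82 log2 units, and the final samples lay within 1 unit of each other. The change was -2.24 in 12I1 and 2.60 in 43D1, which left a mean of -0.01 ± 0.62, or -0.22 without 09I1 and 0.54 without 12I1.

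**Figure D3:**
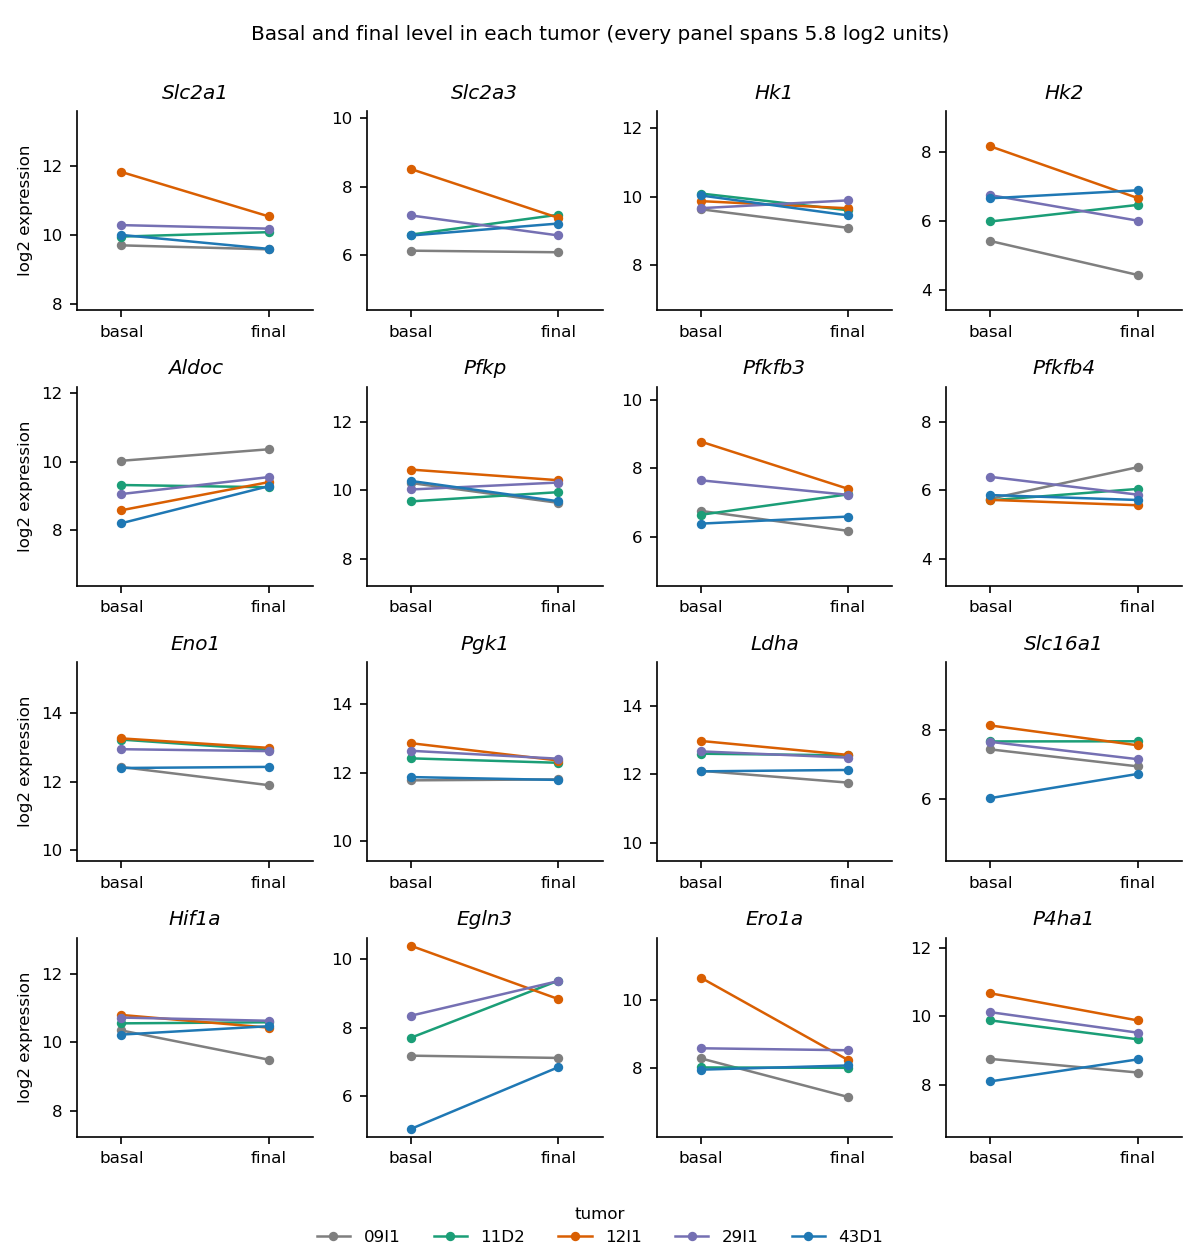
Log2 expression of 16 genes, up to 2 per role with the smallest unadjusted p, in the basal and final array of each tumor (lines join samples of 1 tumor; colours are tumors; every panel spans 5.8 log2 units). The orange line of 12I1 starts highest for most genes, such as Slc2a1 at 11.84, and no gene has lines sloping the same way in all 5 tumors.

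Among the regulators, Hif1a encodes the oxygen-labile HIF-1 alpha subunit, which is controlled mostly at the protein level. Hif1a measured 10.35, 10.56, 10.80, 10.72 and 10.23 in the basal and 9.50, 10.59, 10.43, 10.63 and 10.47 in the final arrays. Every array but 09I1 final lay within 0.6 units, and the mean change was -0.21 ± 0.18, or -0.05 without 09I1. Egln3 (PHD3), a hydroxylase that HIF itself induces, measured 7.18, 7.71, 10.38, 8.35 and 5.05 in the basal and 7.12, 9.37, 8.83, 9.36 and 6.85 in the final arrays. It was higher by over 1 unit in the final samples of 11D2, 29I1 and 43D1 and lower by more than that in 12I1, with a mean change of 0.57 ± 0.49. Egln1 (PHD2), the main oxygen sensor, had a mean change of -0.19 and Epas1 (HIF-2 alpha) one of 0.05. Epas1 ranged from 9.16 to 9.95 over the 10 arrays.

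By their brightest probe sets, the 9 hypoxia-induced genes each had 1 sign of difference in 12I1 and the other in 43D1. All 9 were lower in the final sample of 12I1, with a median change of -0.84 log2 units, although Ankrd37 differed by only -0.01. All 9 were higher in the final sample of 43D1, with a median of 0.65. The basal level enters each change with a minus sign, so a tumor high at the start is more likely to show a negative change, and these changes are not independent of the basal pattern. Ero1a, an oxidase that forms disulfide bonds in the endoplasmic reticulum, measured 8.29, 8.02, 10.64, 8.58 and 7.96 in the basal and 7.16, 8.01, 8.24, 8.52 and 8.08 in the final arrays. The 12I1 biopsy stood about 2 units above all others, and the mean change was -0.69 ± 0.38, or -0.27 without it. Both Ero1a probe sets gave nearly the same difference in 12I1, at -2.40 and -2.36. In 43D1 they had opposite signs, at 0.12 for the brightest and -0.24 for the other. P4ha1, a subunit of the enzyme that hydroxylates collagen prolines, measured 8.75, 9.88, 10.67, 10.11 and 8.10 in the basal and 8.36, 9.32, 9.87, 9.52 and 8.74 in the final arrays. It was lower in the final sample of every tumor but 43D1, with a mean change of -0.34 ± 0.22, and -0.58 without 43D1.

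Most other hypoxia-induced genes were highest in 12I1 basal as well. Car9, which buffers acid outside the cell and is a standard hypoxia marker, was chosen after its values were seen. It measured 6.71, 7.39, 9.28, 7.48 and 4.64 in the basal and 6.96, 6.72, 7.11, 6.89 and 5.29 in the final arrays, so 43D1 was lowest at both samplings. Its mean change was -0.50 ± 0.39, and -0.08 without 12I1. Final minus basal of Adm, the vasodilator adrenomedullin, was -1.75 in 12I1 and 1.90 in 43D1. Ndrg1, a stress-induced gene, had -1.93 and 0.29 in those tumors, and Bnip3, which directs mitochondria to autophagy, -0.84 and 0.68. Bhlhe40, a transcription repressor, had -0.80 in 12I1, 1.10 in 43D1 and -1.57 in 09I1. P4ha2, another collagen hydroxylase subunit, had -0.83 and 0.66, and Ankrd37, an ankyrin repeat protein, -0.01 and 0.28. Mean changes over the 5 tumors were 0.11 for Adm, -0.43 for Ndrg1, 0.00 for Bnip3, -0.44 for Bhlhe40, -0.22 for P4ha2 and 0.12 for Ankrd37. Without 12I1 Ndrg1 had -0.05, P4ha2 -0.07, Bnip3 0.22 and Adm 0.58, and without 09I1 Bhlhe40 had -0.16 and Ankrd37 -0.02.

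Taken tumor by tumor, with 1 array at each sampling and so no test, 12I1 differed most. In 12I1, 31 of 35 members were lower in the final sample (43.0% of genes were), 11 of them at least 2-fold (2.23% of genes) and 0 at least 2-fold higher (1.96%). The 11 were Slc2a1, Slc2a3, Hk2, Pfkfb3, Eno2, Slc16a3, Egln3, Car9, Ndrg1, Ero1a and Adm. The 28 members at their highest of 10 arrays in 12I1 basal must be lower in its final sample. The count of 31 is thus not separate from the basal pattern. In 43D1, 26 members were higher (48.9% of genes were), 5 at least 2-fold (3.75% of genes) and 0 at least 2-fold lower (2.93%). Those 5 were Slc16a3, Adm, Egln3, Bhlhe40 and Aldoc. Likewise, the 13 members at their lowest of 10 arrays in 43D1 basal must be higher in its final sample. In 29I1, 25 members were lower (54.3% of genes were) with a median of -0.19 log2 units, with 0 at least 2-fold lower (5.83% of genes) and only Egln3 at least 2-fold higher (1.60%). In 11D2 the median was -0.06, with 0 at least 2-fold lower (1.19%) and again only Egln3 at least 2-fold higher (3.48%). In 09I1 the median was -0.07, with Ero1a and Bhlhe40 at least 2-fold lower (8.50%) and Eno2 at least 2-fold higher (12.2%).

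**Figure D4:**
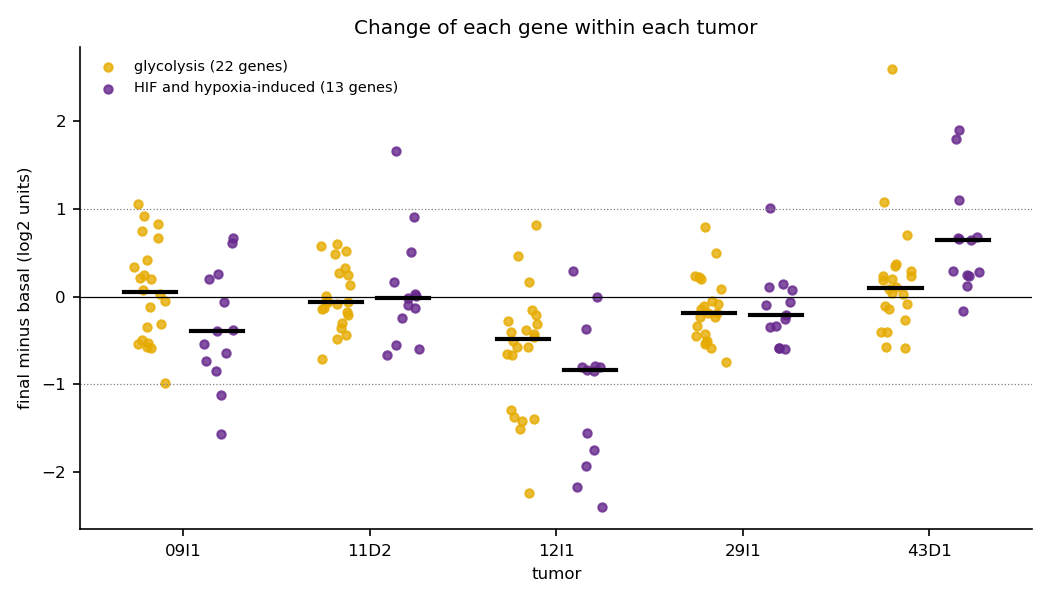
Final minus basal in log2 units for each gene (points) in each tumor, for 22 glycolysis genes and 13 HIF and hypoxia-induced genes; black bars are medians and dotted lines mark 2-fold. The HIF and hypoxia-induced points lie lowest in 12I1 (median -0.83) and highest in 43D1 (median 0.64).

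Members also differed in how far tumors spread at each sampling. The SD between tumors was larger in the basal than in the final arrays for 28 of the 35 members, against 39.1% of all genes. The median SD was 0.64 log2 units in the basal and 0.38 in the final arrays, against 0.23 and 0.31 over all genes. Much of this rested on 12I1: without it 18 of 35 had the larger basal SD (36.9% of genes). The medians were then 0.41 and 0.40, against 0.23 and 0.32 over all genes. Without 09I1, whose final array stood apart, 33 of 35 members and 64.1% of genes had the larger basal SD. Bhlhe40, Hif1a, Epas1, Hk1, Pfkm, Pfkfb4 and Eno1 were the members with the larger final SD.

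**Figure D5:**
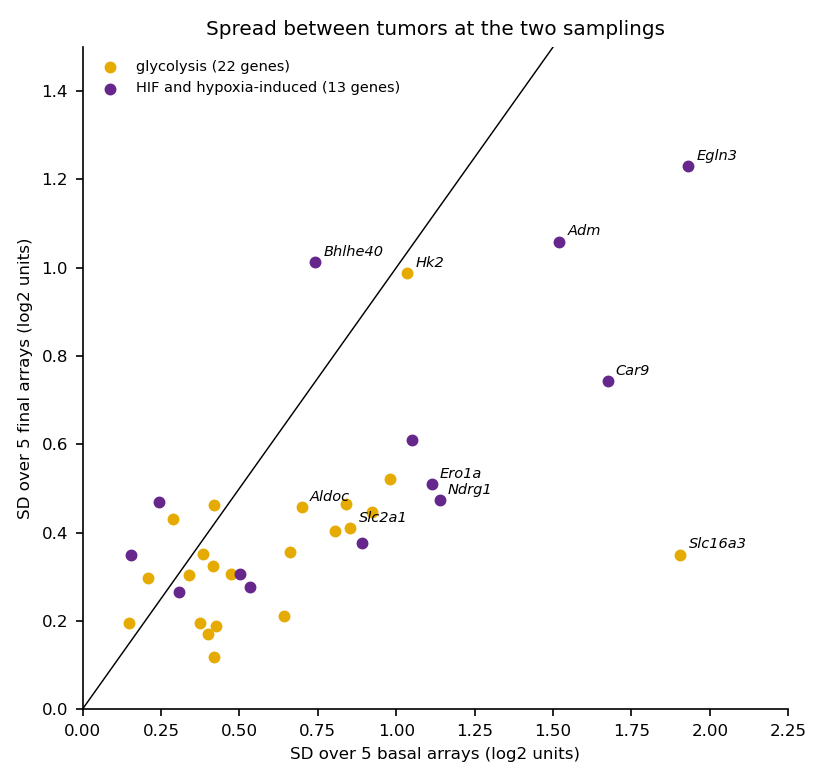
SD between tumors in the 5 basal arrays (horizontal) against the 5 final arrays (vertical) for each gene, in log2 units, with the line of equal spread. Of the 35 genes 28 lie below the line, Slc16a3 farthest (1.91 basal, 0.35 final).

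Markers of other cells moved with these tumors too, and their part in the members' values was not tested. In 12I1, red blood cell markers were lower in the final sample in 7 of 8 genes tested with a median of -2.12 log2 units, macrophage markers in 14 of 14 with a median of -0.79 and neutrophil markers in 3 of 5 with a median of -1.06. Fibroblast markers were higher in 11 of 12 with a median of 0.71, and proliferation markers had a median of 0.26. The mean of the 9 red blood cell markers ran from 5.35 to 7.41 in the basal and 5.06 to 6.34 in the final arrays and was highest in 12I1 basal. Median changes of the red blood cell markers were -0.38 in 09I1, -1.04 in 11D2, 0.09 in 29I1 and 0.16 in 43D1. The members' medians in those tumors were -0.07, -0.06, -0.19 and 0.23. The macrophage mean ran from 8.28 to 10.29 in the basal and 8.75 to 9.59 in the final arrays. It was highest in 29I1 basal, at 9.83 in 12I1 basal and lowest in 43D1 basal. In 43D1 all 14 macrophage and all 16 T and NK cell markers were higher in the final sample, with medians of 1.03 and 1.19, and all 15 proliferation markers lower with a median of -2.32. Tumor 29I1 showed a like proliferation median of -2.14 and a macrophage median of -1.36, with members at a median of -0.19.

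Other genes of the same pathways were followed in lists chosen with earlier results of these data known. Of 25 tested hypoxia-induced genes outside the 35 members, 0 were called and 17 were highest in 12I1 basal (7.00% of all genes were). A negative mean change was seen in 18 (47.3% of all genes), and the median change over the 25 was -0.16. Vegfa, the vessel growth factor, measured 9.57, 8.71, 10.48, 9.43 and 8.13 in the basal and 8.77, 8.14, 8.65, 8.98 and 8.03 in the final arrays. It was lower in all 5 tumors (2.51% of all genes were), from -0.10 in 43D1 to -1.82 in 12I1. Its mean change was -0.75 ± 0.25 (SE, n = 5 tumors), with an unadjusted limma p of 0.0192 and an adjusted p of 0.977. Without 12I1 the mean was -0.48. Plod1, a collagen lysine hydroxylase, had a mean change of -0.53 ± 0.19, with an unadjusted limma p of 0.0298 and an adjusted p of 0.977. Its mean was -0.37 without 09I1.

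Genes at the edges of the pathway were counted in the same way. The number highest in 12I1 basal was 0 of 11 for pyruvate entry into mitochondria, 0 of 6 for the pentose phosphate path and 0 of 8 for other HIF regulators. At the 7.00% of all genes, lists this short would hold about as few, so these counts show no difference from other genes. The adjusted test called 0 of them. By smallest p, the named members of the lists were Pdp2 (-0.35 ± 0.18) and Pdk2 (0.28 ± 0.18), which act on pyruvate dehydrogenase, Rpia (-0.15 ± 0.13) and Tkt (-0.14 ± 0.12) of the pentose phosphate path, and Rbx1 (0.18 ± 0.14) and Elob (0.20 ± 0.19) of the complex that degrades HIF. Without 09I1, Rbx1 had 0.06 and Elob -0.01, and without 29I1 Pdk2 had 0.18 and Tkt -0.05. Pdk4, picked after its values were seen, had the largest single changes, at -3.60 in 09I1 and 4.20 in 29I1, and a mean of 1.51 ± 1.01 that was 2.78 without 09I1 and 0.83 without 29I1. The gluconeogenic phosphatases Fbp1 and Fbp2 had mean changes of 1.07 ± 0.66 and 0.65 ± 0.29, with 0.48 for Fbp1 without 11D2 and 0.38 for Fbp2 without 12I1. Among 9 further glycolysis genes 3 were highest in 12I1 basal. Bpgm, which makes 2,3-bisphosphoglycerate in red blood cells, had a mean change of -0.64 ± 0.29, -0.38 without 12I1, and a change of -1.70 in 12I1, beside the red blood cell markers above. Pgam2, the muscle mutase, had 0.68 ± 0.36 and rested on 2.49 in 11D2, where skeletal muscle markers had a median change of 4.24.

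Gapdh was the study's housekeeping control and is itself a glycolytic enzyme. Its array control probe sets at the 3' end, middle and 5' end were highest in 12I1 basal, at 13.34, 13.33 and 13.10 log2 units. Final minus basal was -0.37, -0.33 and -0.25 in 12I1 and 0.20, 0.30 and 0.28 in 43D1. Other probe sets for Gapdh and Pkm carry more than 1 symbol, and these genes are not analysed here.

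Agreement between probe sets of a gene set a further limit. The next probe set was often much dimmer than the brightest. Of the 13 members with more than 1 tested probe set, the brightest and the next gave the same sign in 13 for 12I1, 11 for 29I1, 10 for 11D2, 8 for 43D1 and 6 for 09I1. All tested probe sets of a gene shared a sign in 12 of the 13 in 12I1. Sizes there could differ or match, at -0.83 and -0.01 for P4ha2, -0.80 and -0.07 for Egln1 and -2.40 and -2.36 for Ero1a. In 09I1 the brightest and the next differed widely for Pfkm (-0.32 and -2.08), Pdk1 (0.75 and -0.79) and Pfkfb4 (0.92 and -0.50, the latter from a probe set with a mean level of 4.86), and the array's hexokinase control differed by -2.74 at the 3' end and -0.83 in the middle.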

How the data were processed

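Total RNA of 10 tumor samples was hybridised to Affymetrix Rat Genome 230 2.0 arrays, 1 sample per array. Per the labels' protocols and the submitters' processing notes, the authors normalized intensities by RMA, and the deposited table holds log2 values for 31099 probe sets, 57 of them controls. The stated filter on signals near background left no trace in it. Of the other probe sets, 20826 carried 1 symbol, 436 several and 9780 none in the platform annotation. No detection calls were used. Precision is limited by the number of arrays.

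Control probe sets and the 25% with the lowest mean were left out. The difference between final and basal came from limma 3.58.1 (R 4.3.3), fitted over 23281 probe sets with an intensity trend and the tumor as a fixed block, with Benjamini-Hochberg adjustment and a threshold of 0.05. The fit was tested on simulated data. The pairing comes from the labels, where both samples of a tumor share 1 code. Correlations of same-tumor deviations from the group means were 0.072, 0.095, 0.014, -0.15 and 0.22 for 09I1, 11D2, 12I1, 29I1 and 43D1.

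Members and lists were chosen with earlier results of these data known. Every member is given with its change. Values in every array are given for the 2 per role with the smallest unadjusted p, and for any with 1 sign in all 5 tumors, of which there were 0. Of each pathway list, the 2 genes with the smallest p are named, with Vegfa, Gapdh and Pkm. Alternatives were no block, other filters, cyclic loess, median centring, array weights, averaging all probe sets of a gene, the methods' paired test and leaving out each tumor. Names and promoter sequences came from RefSeq, assembly GRCr8. Figures used matplotlib 3.10.9.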

Additional observations from a re-analysis of the deposited data

Results flagged for a closer look

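In each group of 5 arrays, a member's highest or lowest value was set against the gap to its nearest neighbour (Dixon's criterion, 0.71 for 5 values). Of 70 sets of 5 values 8 passed, where chance gives about 3.5. Of these, 3 were at the final array of 09I1, whose quality measures stood apart: Aldoc at 10.37 log2 units (others 9.26 to 9.56), Hif1a at 9.50 (others 10.43 to 10.63) and Bhlhe40 at 7.58 (others 9.51 to 10.05). The basal array of 12I1 gave Slc2a1 at 11.84 (others 9.70 to 10.29) and Ero1a at 10.64 (others 7.96 to 8.58). Tumor 29I1 gave Pfkfb4 at 6.39 in its basal array (others 5.71 to 5.86) and Slc16a3 at 8.72 in its final array (others 7.88 to 7.998). Car9 was at 5.29 in the final array of 43D1 (others 6.72 to 7.11). What lies behind these values was not tested.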

How the results depend on the processing

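No member was called under any alternative, with the smallest adjusted p of a member between 0.411 (array weights) and 0.999 (without 11D2). Without the tumor as a block, ignoring the pairing, 0 members and 955 probe sets lay under an unadjusted p of 0.05, against 1 and 935 with it. The methods' paired t-test on the log2 values gave 0 members, array weights 3 members and 2440 probe sets, and the filter on the lowest 50% gave 465 probe sets. Leaving out each tumor gave 1 to 4 members, 608 (without 11D2) to 1868 (without 09I1) probe sets, and 18 (without 12I1) to 33 members with the larger basal SD. The median change over the members was -0.09 with array weights and -0.08 after averaging all probe sets of a gene. Of 454 pairs of a member and an alternative, 34 in 13 members changed sign. Cyclic loess gave 0.0085 for Aldoa, 0.011 for Tpi1 and 0.0047 for Slc16a3, and median centring 0.026, 0.024 and 0.018. Array weights gave 0.0076 for Slc2a3, 0.0032 for Pfkfb3, -0.066 for Ldhb, -0.034 for Bnip3 and -0.019 for Ankrd37. Leaving out each tumor spanned -0.10 to 0.11 for Aldoa, -0.18 to 0.13 for Tpi1, -0.67 to 0.54 for Slc16a3, -0.43 to 0.075 for Slc2a3, -0.12 to 0.24 for Pfkfb4, -0.22 to 0.39 for Eno2, -0.040 to 0.27 for Ldhb, -0.27 to 0.079 for Pdk1, -0.0064 to 0.16 for Epas1, -0.17 to 0.22 for Bnip3, -0.017 to 0.20 for Ankrd37 and -0.33 to 0.58 for Adm. The cause of these shifts was not tested. Alternatives for the array counts and the basal SD were chosen after seeing the data: the 28 members highest in 12I1 basal and the 31 lower in that tumor kept their numbers under loess, centring and the mean of probe sets.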
